A study of Homo sapiens with 12 samples.

Results

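The genes described here are those of the mitochondrial respiratory chain and ATP synthase, measured in HOS, an established human osteosarcoma cell line. They were taken by name: protein-coding genes of the GENCODE annotation whose symbols begin with NDUFA, NDUFB, NDUFC, NDUFS, NDUFV, UQCR, COX4 to COX8, ATP5 or MT-, together with SDHA, SDHB, SDHC, SDHD and CYC1. The rule uses names and no measured value. Of 113 such genes, 108 had a row among the 25141 genes of the count table, and 95 of these lie in the nuclear genome and 13 in the mitochondrial genome. ATP5MF-PTCD1, COX4I2, COX6A2, COX7B2 and NDUFC2-KCTD14 were not analysed here. By symbol, the nuclear genes comprise 39 complex I genes, 8 complex I assembly factors of the NDUFAF series, 4 genes of complex II, 10 of complex III, 14 of complex IV and 20 of ATP synthase. The mitochondrial genes comprise 7 of complex I, 1 of complex III, 3 of complex IV and 2 of ATP synthase. NDUFA4 keeps its complex I name here although its protein is now placed in complex IV.

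The study asked how the adaptor protein CIN85, encoded by SH3KBP1, alters osteosarcoma cells, and RNA was measured in 4 groups of 3 libraries. Mock cells carried an empty vector and upCIN85 cells a plasmid for full-length CIN85 driven by a CMV vector. Both were pools of geneticin-resistant cells rather than single clones. siNeg cells received a non-targeting siRNA and siCIN85 cells a mixture of siRNAs against CIN85. The labels do not say whether the 3 libraries of a group came from separate cultures, so P-values measure the spread between these libraries, which may be technical. Neither the time between siRNA transfection and harvest nor the passage of the pools was given in the sources used here. Changes of RNA per cell and changes in the share of a cell type cannot be told apart in bulk RNA.

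The respiratory chain passes electrons from complexes I and II through complex III to complex IV and pumps protons, and ATP synthase uses the resulting gradient to make ATP. Most subunits are encoded in the nucleus and imported, whereas a small hydrophobic core is encoded by mitochondrial DNA, transcribed as long polycistronic RNAs that are cut into mRNAs inside the organelle. The nuclear and mitochondrial subunits are therefore made by separate transcription systems, and nuclear regulators such as NRF1, GABPA, ESRRA and the PGC-1 coactivators are known to act on many of the nuclear genes.

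Total counts per library ranged from 5334731 to 6049458 in the plasmid experiment and from 3540641 to 4174860 in the siRNA experiment. edgeR, applied to all 12 libraries, tested 12542 genes that passed its filter on low counts. These included 92 nuclear and all 13 mitochondrial members. COX6B2, COX8C and NDUFA4L2 did not pass and reached at most 1, 4 and 4 counts in any library. SH3KBP1 was measured at 85.1 ± 2.37 CPM (counts scaled to the same effective library size, SD, n = 3) in siNeg and 7.54 ± 3.19 in siCIN85, a log2 fold change of -3.51 (SE 0.21) (edgeR adjusted P = 5.09e-08). In the libraries labelled upCIN85 it was measured at 81.3 ± 9.61 CPM against 77.5 ± 5.004 CPM in Mock (log2 fold change 0.07, SE 0.16, edgeR adjusted P = 0.887). The counted reads come from the 3′ end of transcripts, and whether RNA of the plasmid falls within the counted region is not given in the sources used here, so this value does not check the overexpression. VIM, COL1A1 and SPARC, which mesenchymal and bone cells express, had at least 1277 counts in every library, while PTPRC of leukocytes had at most 1. Of the other genes of that lineage, COL1A2 had 65 to 1250 counts and RUNX2 had 25 to 228. The osteoblast markers ALPL and IBSP were low, with at most 23 and 1 counts. Of the epithelial genes EPCAM was counted at 85 to 360, CDH1 at 66 to 209 and KRT19 at 0 to 4. The endothelial genes CDH5 and PECAM1 had 2 to 36 and 0 to 6 counts.

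Promoters of the nuclear members held 3 short sequence motifs, which were not used to choose them, more often than promoters of tested genes did. Of the 95 nuclear members, 73 had an entry in the RefSeq promoter table (GRCh38.p14), which holds 250 bases before and 50 after each gene start. The NRF1 motif, of which the last capitals of the UQCR11 stretch printed further on are a match, stood on either strand in 17 of 73 promoters, or 23.3%, against 12.3% of 9406 promoters of tested genes and 6.28% of all 27305 promoters. The ETS motif CCGGAAG, the core letters bound by GABPA and other ETS factors, stood in 27.4% of the members' promoters, 20.2% of those of tested genes and 10.7% of all. The YY1 motif AAGATGGCG stood in 10.96%, 4.17% and 1.85%, and at least 1 of the 3 motifs in 52.1%, 32.5% and 16.96%. The ETS and YY1 motifs can overlap by the letters AAG, and each match was counted. A match is only a match of letters and no binding was measured.

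Shown here are the 150 bases before the RefSeq start of 4 genes. RefSeq starts differ from the GENCODE gene starts used elsewhere: of 71 members compared, 23 had both within 30 bases, and 25 had a RefSeq start more than 150 bases inside the GENCODE gene, so that many promoter windows lie partly or wholly within a gene as GENCODE draws it. Stretches with more than 30 bases in an annotated exon are not printed, which left 8 with a motif. ATP5PD, COX6A1 and COX5B had the lowest P in siCIN85 versus siNeg among these 8, and UQCR11 the lowest among those with an NRF1 motif. Capitals mark the motif matches on either strand, and each sequence is printed in the direction of its gene. ATP5PD lies at chr17:75046970-75047119 (-), COX6A1 at chr12:120437963-120438112 (+), COX5B at chr2:97645912-97646061 (+) and UQCR11 at chr19:1605463-1605612 (-), and the last 16, 23, 22 and 28 bases in this order lie past the GENCODE start.
ATP5PD: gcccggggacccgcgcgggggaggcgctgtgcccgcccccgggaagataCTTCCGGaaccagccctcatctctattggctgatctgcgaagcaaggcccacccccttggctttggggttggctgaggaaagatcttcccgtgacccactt
COX6A1: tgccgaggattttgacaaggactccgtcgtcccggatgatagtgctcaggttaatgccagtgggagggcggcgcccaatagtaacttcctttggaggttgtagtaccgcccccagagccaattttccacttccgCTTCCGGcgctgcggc
COX5B: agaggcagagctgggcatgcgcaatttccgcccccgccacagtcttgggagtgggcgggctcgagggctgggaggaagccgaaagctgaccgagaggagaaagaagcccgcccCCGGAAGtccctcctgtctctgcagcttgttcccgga
UQCR11: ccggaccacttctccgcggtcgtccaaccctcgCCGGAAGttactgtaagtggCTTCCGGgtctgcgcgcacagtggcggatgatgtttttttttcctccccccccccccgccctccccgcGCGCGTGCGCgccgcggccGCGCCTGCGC
ATP5PD, COX6A1 and COX5B each hold 1 ETS match in the stretch, and UQCR11 holds 2 ETS and 2 NRF1 matches. COX5B, a complex IV subunit, and UQCR11, a complex III subunit, were chosen after their values were seen, and had log2 fold changes of -0.27 and -0.05 in siCIN85 versus siNeg. Of the promoters of members below 0 in siCIN85 versus siNeg, 31 of 58 held at least 1 motif, and of those above 0, 6 of 13.

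The first comparison set the nuclear and the mitochondrial genes against each other in the 4 groups. Counts on the 13 MT- genes varied over a wide range between libraries of the same group, and counts on the nuclear genes did not. In Mock, MT- genes took 4.02%, 2.49% and 3.47% of the counts of replicates 1 to 3. In upCIN85 they took 3.07%, 3.06% and 2.58%. In siNeg they took 3.08%, 4.14% and 5.58%. In siCIN85 they took 3.53%, 5.06% and 3.87%. All 4 ranges overlapped, with means of 3.32 ± 0.775%, 2.90 ± 0.283%, 4.26 ± 1.26% and 4.15 ± 0.806% (SD, n = 3). The counting error of such a share is far smaller: the Wilson 95% interval of the highest, siNeg replicate 3, was 5.55% to 5.60%, and these intervals cover counting error only.

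The nuclear genes took 2.12%, 2.17% and 2.35% of counts in Mock and 2.23%, 2.18% and 2.33% in upCIN85. They took 2.32%, 2.46% and 2.43% in siNeg and 2.11%, 2.30% and 2.26% in siCIN85. The group means were 2.21 ± 0.122% for Mock, 2.247 ± 0.0734% for upCIN85, 2.40 ± 0.0722% for siNeg and 2.22 ± 0.0985% for siCIN85 (SD, n = 3), so siNeg was the highest group. Its libraries lay above every siCIN85 library, by a small margin (2.32% against 2.30%), and overlapped with Mock. As a share of the counts outside the MT- genes, siNeg and siCIN85 overlapped as well, with 2.39% the lowest in siNeg and 2.42% the highest in siCIN85. The ratio of MT- to nuclear counts ran from 1.11 in upCIN85 replicate 3 to 2.30 in siNeg replicate 3.

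**Figure D1:**
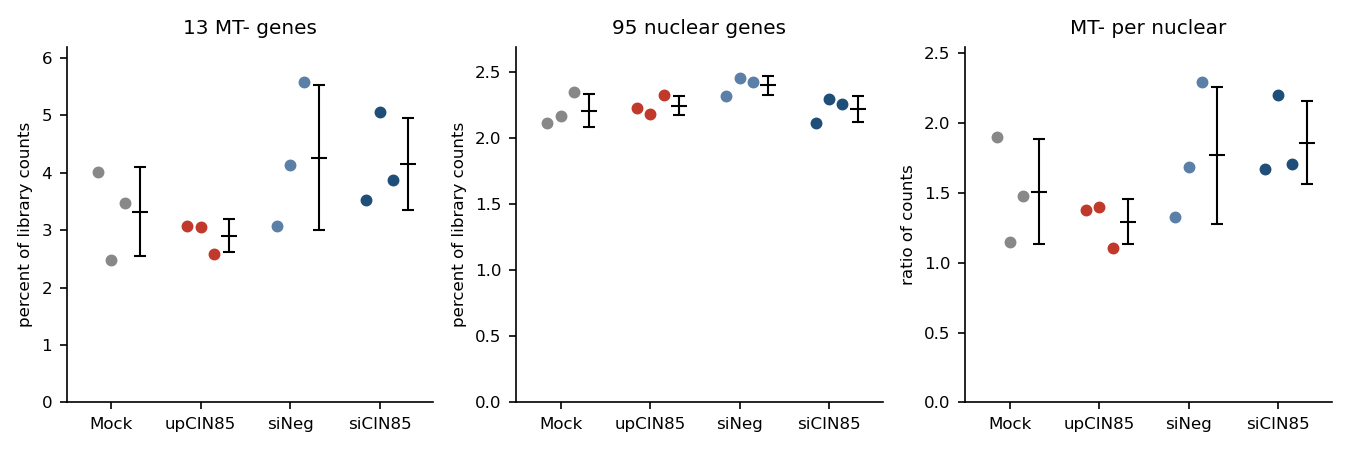
Share of each library's counts on the 13 MT- genes (left) and on the 95 nuclear genes (middle), and the ratio of the former to the latter (right), by group; points are libraries in replicate order, bars the mean ± SD of 3. The MT- share spreads from 2.49% to 5.58% with overlapping groups, while the nuclear share stays between 2.11% and 2.46%.

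The nuclear share was made up mainly of ATP synthase, complex I and complex IV genes. ATP synthase genes took 0.961 ± 0.0561% of counts for Mock, 0.973 ± 0.0368% for upCIN85, 1.06 ± 0.0326% for siNeg and 0.970 ± 0.0565% for siCIN85 (SD, n = 3). Complex I genes took 0.616 ± 0.0264%, 0.632 ± 0.0106%, 0.667 ± 0.0235% and 0.627 ± 0.0170%. Complex IV genes took 0.316 ± 0.0235%, 0.316 ± 0.0239%, 0.352 ± 0.0108% and 0.317 ± 0.0178% in the same order. A single row, ATP5MG, which encodes subunit g of the membrane part of ATP synthase, held 15.2% to 17.6% of all nuclear counts. Without it siNeg was still highest, at 2.00% against 1.86%, 1.88% and 1.86% in Mock, upCIN85 and siCIN85.

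The 13 MT- genes deviated together from library to library. Relative to the group mean on the log2 scale, all 13 were higher in Mock replicate 1, siNeg replicate 3 and siCIN85 replicate 2, with median deviations of 0.26, 0.49 and 0.29. All 13 were lower in Mock replicate 2, upCIN85 replicate 3, siNeg replicate 1 and siCIN85 replicate 1, with medians of -0.39, -0.15, -0.50 and -0.27. The nuclear genes in the same libraries had medians between -0.10 and 0.10. The median within-group SD was 0.36 over the MT- genes, 0.14 over the nuclear members and 0.22 over all genes tested (log2 CPM). By this measure nuclear members varied less between replicates than genes in general, and MT- genes more. The sets were not matched for count level, and its part in these values was not tested. Other measures of the mitochondrial genome moved in part with these libraries. The mitochondrial 16S rRNA gene MT-RNR2 took 1.60% of counts in siNeg replicate 3 against 0.805% to 1.33% elsewhere. Nuclear pseudogenes of MT- genes took 0.0971% there against 0.00891% to 0.0382% elsewhere. Genes of cytoplasmic ribosomal proteins were also highest in that library, at 7.90% against 6.22% to 7.49%. The part of these measures in the MT- values was not tested.

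**Figure D2:**
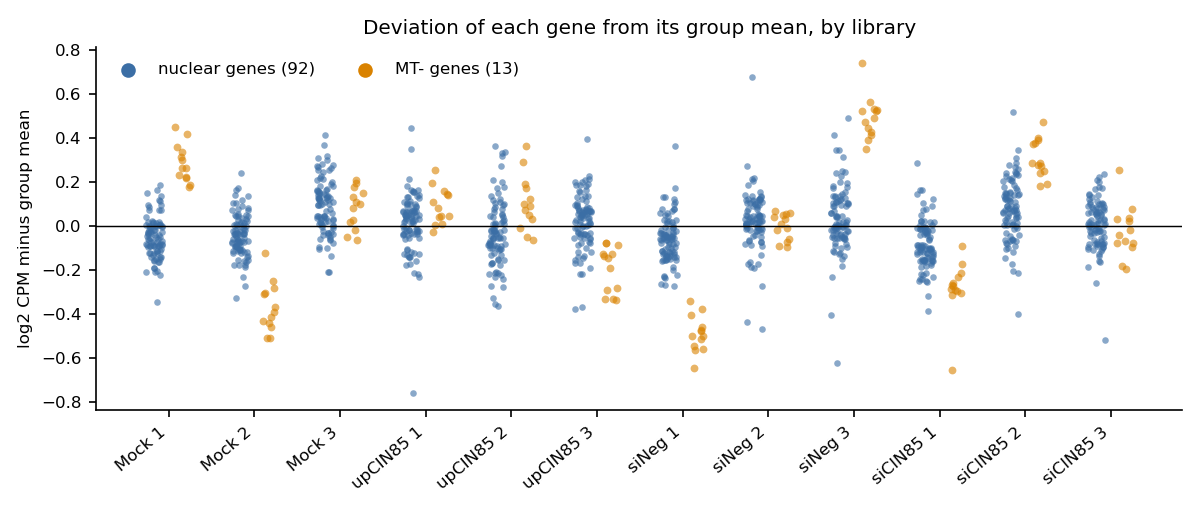
Deviation of each gene from the mean of its group (log2 CPM, vertical axis) in each of the 12 libraries, with nuclear members in blue and MT- genes in orange; each point is 1 gene. MT- genes lie as a block above or below 0 in 7 libraries, with medians from -0.50 to 0.49, while nuclear medians stay between -0.10 and 0.10.

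MT-CO3, a catalytic-core subunit of complex IV, held the largest part of the MT- counts in every library, from 16.95% to 23.1%. MT-ND4 of complex I held 12.3% to 14.8% and MT-ND3 12.8% to 15.2%. MT-ND6, the only protein gene on the opposite strand of the mitochondrial genome (chrM:14149-14673, minus strand), held 0.495% to 0.870%. MT-ATP8 (chrM:8366-8572) and MT-ATP6 (chrM:8527-9207) overlap, as do MT-ND4L (chrM:10470-10766) and MT-ND4 (chrM:10760-12137), and each pair lies on a shared mRNA, so the division of counts within a pair is uncertain. Gene positions here follow GENCODE release 29 (GRCh38). Exact matches to nuclear copies also limit some genes: of the 75-base words in the last 300 bases, MT-ND1 shared 42.0% with MTND1P23, MT-CO1 29.2% with MTCO1P12 and MT-ATP6 26.5% with MTATP6P1. Among nuclear members the largest shares with another gene were 47.2% for NDUFB8 and 43.4% for NDUFA7.

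In upCIN85 versus Mock, nuclear members were evenly split and MT- genes were all on the lower side, with no gene of either set past an edgeR adjusted P of 0.05. Of all 12542 genes tested, 1.23% passed. Of the 92 nuclear members, 46 had a log2 fold change above 0 and 46 below, with a median of -0.005 against 0.007 over all genes. At an unadjusted P of 0.05, 5 were higher and 6 lower, where 6.64% and 7.85% of all genes were. DESeq2 passed 2, ATP5ME and NDUFB2, where it passed 2.15% of all genes. The libraries of both groups did not overlap for 7 higher and 9 lower members, where 9.74% and 11% of all genes did so. All 13 MT- genes had values below 0, from -0.33 for MT-ATP8 (SE 0.24) to -0.15 for MT-ND4 (SE 0.22), with a median of -0.18. None reached an unadjusted P of 0.05 in edgeR, the lowest adjusted P was 0.574, DESeq2 passed 0, and the libraries of the groups overlapped for each. Since these genes vary together, 13 values on one side are not 13 independent observations. Without Mock replicate 1 the median was -0.05, and without Mock replicate 2 it was -0.35.

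ATP5ME, subunit e of ATP synthase (chr4:672436-674338), came nearest to a higher call. Its CPM was 128.1, 112.6 and 125.2 in Mock and 153.5, 182.4 and 169.5 in upCIN85. All upCIN85 libraries lay above all Mock libraries, with a log2 fold change of 0.47 (SE 0.12) and an edgeR adjusted P of 0.0655. It passed with only the 6 libraries of the comparison (edgeR adjusted P = 0.0398), without a filter on low counts (0.0127) and in DESeq2 (0.0282). NDUFB2, an accessory subunit of complex I, measured 121.0, 114.2 and 109.8 CPM in Mock and 142.2, 144.9 and 144.7 in upCIN85. These did not overlap either (log2 fold change 0.32, SE 0.09, edgeR adjusted P = 0.0783, and 0.0367 in DESeq2).

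COX7A1, the heart and muscle isoform of a complex IV subunit, had 8, 13 and 10 counts in Mock and 0, 3 and 3 in upCIN85. It had 7, 13 and 4 counts in siNeg and 7, 9 and 4 in siCIN85, so the upCIN85 libraries lay below all Mock libraries and the siRNA groups overlapped. The ratio of summed counts, upCIN85 to Mock, was 0.185 with an exact 95% interval of 0.0632 to 0.451 for counting error, and the fitted log2 fold change was -2.35 (SE 0.63, edgeR adjusted P = 0.0735, and 0.0089 without a filter on low counts). COX7A2, the isoform found in most tissues, measured 382.5 ± 62.6 CPM in Mock and 367.8 ± 33.1 CPM in upCIN85 (SD, n = 3) with a log2 fold change of -0.06 (SE 0.13). COX8A, the common isoform of the smallest complex IV subunit, had 229.3, 204.4 and 211.0 CPM in Mock and 186.0, 167.5 and 147.7 in upCIN85. These groups did not overlap, with a log2 fold change of -0.36 (SE 0.11) and an edgeR adjusted P of 0.104.

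In siCIN85 versus siNeg the nuclear members leaned to lower values across the complexes, while MT- genes did not differ by more than their spread. Of 92 nuclear members, 74 had a log2 fold change below 0 and 18 above, with a median of -0.14, where 6374 of 12542 genes were below 0 with a median of -0.005. None passed an edgeR adjusted P of 0.05, where 1.04% of all genes did, and DESeq2 passed 1, UQCRQ, where it passed 2.71% of all genes. At an unadjusted P of 0.05, 18 were lower and 2 higher, where 8.15% and 7.55% of all genes were. The libraries did not overlap for 23 lower and 4 higher members, where 10.2% and 9.91% of all genes did so. Values below 0 were found for 31 of 38 complex I genes, 5 of 8 assembly factors, 4 of 4 complex II genes, 7 of 10 complex III genes, 10 of 12 complex IV genes and 17 of 20 ATP synthase genes. The medians of these groups ran from -0.20 for complex IV to -0.07 for complex III. Leaving out any 1 library kept the nuclear median between -0.19 and -0.10. The nuclear members also varied together between libraries. Of the 92, 75 were below the group mean in siCIN85 replicate 1 and 70 above it in siCIN85 replicate 2. These tallies are therefore not independent observations. Relative to the mean of all libraries, their median was 0.051 in siCIN85 replicate 2 and 0.030 in siNeg replicate 1, so the groups overlapped.

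**Figure D3:**
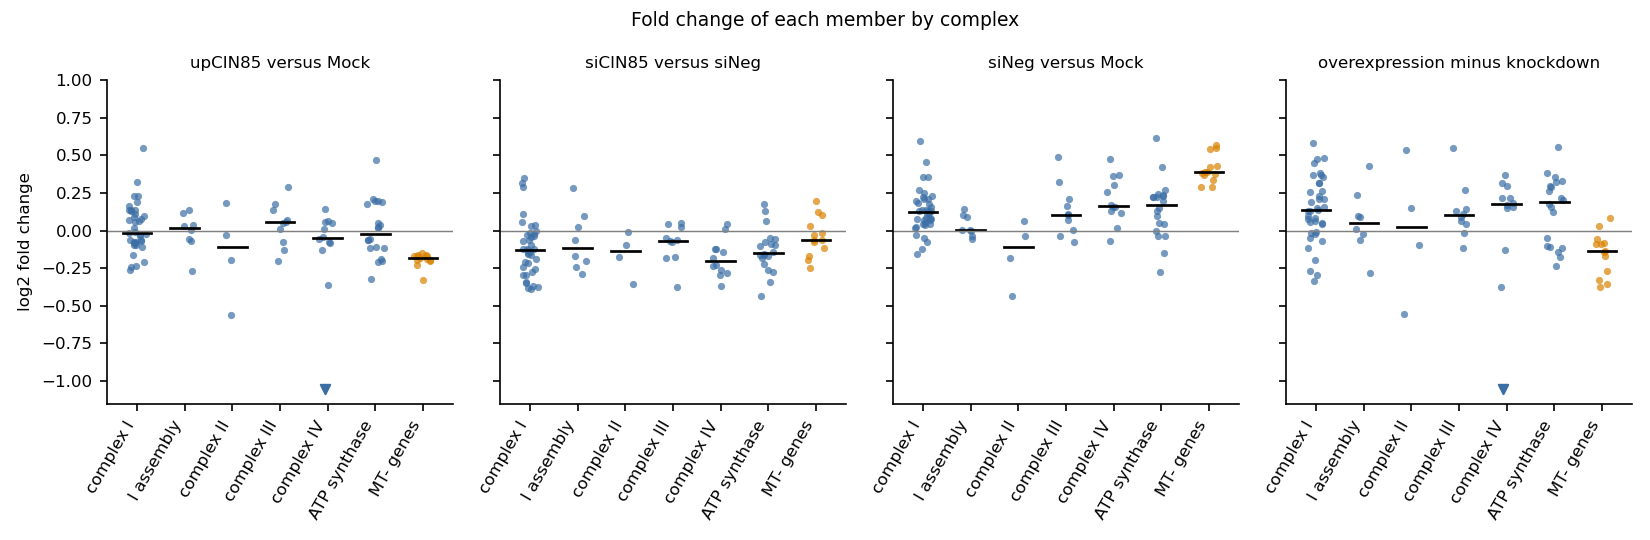
log2 fold change of each member (points) in the 4 comparisons, grouped by complex for nuclear members (blue) and together for MT- genes (orange), with group medians as black lines; triangles mark COX7A1, which lies below the axis at -2.35 in upCIN85 versus Mock and -2.17 in the difference. In siCIN85 versus siNeg the medians of all 6 nuclear groups lie below 0, and in siNeg versus Mock the 13 MT- genes lie between 0.29 and 0.57.

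In the knockdown experiment libraries of the same replicate number were taken as paired, with correlations of 0.35, 0.27 and 0.45 between their deviations. The labels do not state a pairing, so the block rests on these same data and not on the design. When the number was a block in this experiment alone, a setting added after the data were seen, only UQCRQ passed among the nuclear members, where 1.89% of all genes passed as lower. With the number as a block in both experiments, 9 members were lower, where 4.21% of all genes were, and 1 was higher, where 3.51% were. The 9 were UQCRQ, COX7A2, ATP5PD, NDUFA4, NDUFA1, NDUFA8, NDUFS4, NDUFB10 and NDUFB3, and the 1 was NDUFA5. COX7A2, NDUFA4, NDUFA1, NDUFA8, NDUFS4 and NDUFB3 were named after their values were seen. The replicate numbers of the plasmid experiment did not meet the limit for pairing, and the calls that need a block there are to be read with that limit. No MT- gene passed under either block.

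UQCRQ, an accessory subunit of complex III (chr5:132866560-132868031), had the lowest P of the members. It measured 567.0, 612.6 and 646.9 CPM in siNeg and 439.7, 510.7 and 460.0 in siCIN85. Every siCIN85 library lay below every siNeg library. The log2 fold change was -0.37 (SE 0.10, edgeR adjusted P = 0.067), and the adjusted P was 0.0302 with the block in the knockdown and 0.0065 with the block in both experiments. ATP5PD, subunit d of the peripheral stalk of ATP synthase, measured 71.2, 80.6 and 71.6 CPM in siNeg and 46.8, 60.2 and 58.4 in siCIN85. These did not overlap (log2 fold change -0.44, SE 0.14, edgeR adjusted P = 0.139, or 0.0771 and 0.0291 with the blocks). NDUFB10, an accessory subunit of complex I, measured 83.0, 92.4 and 84.6 CPM in siNeg and 62.1, 71.4 and 70.5 in siCIN85, again without overlap (log2 fold change -0.35, SE 0.11, edgeR adjusted P = 0.141, or 0.0966 and 0.0432 with the blocks).

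NDUFA5, an accessory subunit in the matrix arm of complex I, had the opposite sign. Its CPM was 177.2, 176.4 and 195.3 in siNeg and 240.3, 205.3 and 252.7 in siCIN85. The siCIN85 libraries lay above all others of the experiment, with a log2 fold change of 0.35 (SE 0.10, edgeR adjusted P = 0.108, or 0.0555 and 0.022 with the blocks). The other members past the threshold with the block in both experiments had main log2 fold changes between -0.39 and -0.29, and of these NDUFA8 and NDUFA4 had overlapping libraries. NDUFA4 rested in part on siNeg replicate 3, with 379.7 CPM against 243.1 and 249.99 in the other siNeg libraries, and its log2 fold change without that library was -0.16. COX7A2 had 415.1, 439.1 and 513.8 CPM in siNeg and 309.4, 404.3 and 345.1 in siCIN85, which did not overlap.

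**Figure D4:**
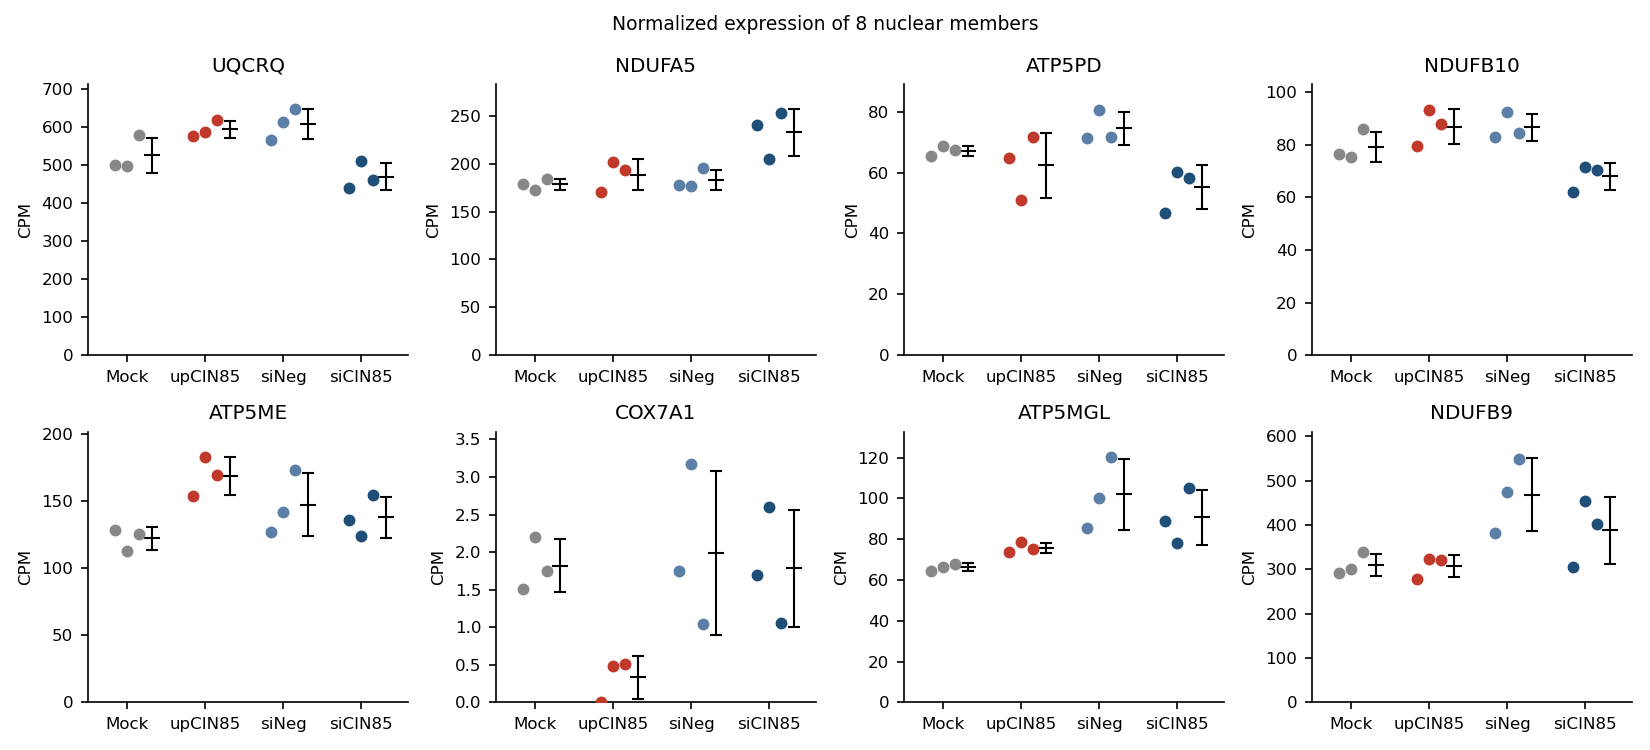
Normalized expression (CPM, linear axis from 0) of 8 nuclear members in the 12 libraries, with the mean ± SD of each group beside its 3 points. UQCRQ, ATP5PD and NDUFB10 have their lowest group mean in siCIN85, the ATP5ME points of upCIN85 lie above those of Mock, COX7A1 is at most 0.51 CPM in upCIN85, and the ATP5MGL and NDUFB9 points of siNeg lie above those of Mock.

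The MT- genes in siCIN85 versus siNeg had 4 values above 0 and 9 below, from -0.25 for MT-CYB (SE 0.18), which encodes cytochrome b of complex III, to 0.19 for MT-ND6 (SE 0.28). None reached an unadjusted P of 0.05 in edgeR, DESeq2 passed 0, and libraries overlapped for all 13. The median of -0.06 rested on the library chosen: it was 0.22 without siNeg replicate 3 and -0.27 without siNeg replicate 1. The SE of these genes, 0.18 to 0.28, bounds what could be seen, and the 95% interval of MT-ND4, from -0.52 to 0.40, spans changes in either direction.

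siNeg versus Mock set the control groups of both experiments against each other. They differ in the agent delivered and in selection, and the labels do not say whether they were grown or sequenced together, so these factors cannot be told apart. In siNeg, 73 of 92 nuclear members had values above 0 and 19 below, with a median of 0.12 against 0.003 over all genes. All 13 MT- genes had values above 0, with a median of 0.39. One nuclear member, ATP5MGL, passed an edgeR adjusted P of 0.05, where 0.526% of all genes passed in either direction and 0.415% as higher. DESeq2 passed 6, where it passed 1.83% of all genes. At an unadjusted P of 0.05, 19 nuclear members were higher and 1 lower, where 6.77% and 5.67% of all genes were. Libraries did not overlap for 20 higher and 2 lower members, where 9.48% and 9.94% of all genes did so. Complex I had 33 of 38 values above 0, complex IV 11 of 12, complex III 8 of 10 and ATP synthase 15 of 20, whereas complex II had 1 of 4. This comparison and siCIN85 versus siNeg use the same siNeg libraries, in which the nuclear share was highest, so their opposite directions are not independent. Nuclear members varied together here too. Of the 92, 71 were above the group mean in Mock replicate 3 and 70 below it in siNeg replicate 1.

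ATP5MGL, an ATP5MG-like gene on chromosome 22 (chr22:42639803-42640601), measured 64.5, 66.5 and 68.0 CPM in Mock and 85.5, 100.2 and 120.1 in siNeg. All siNeg libraries lay above all Mock libraries, and the log2 fold change was 0.62 (SE 0.13, edgeR adjusted P = 0.0427). The call was lost without any 1 of the Mock replicates or without siNeg replicate 2 or 3, with adjusted P from 0.1002 to 0.171, and after all libraries were thinned to the smallest total, with an adjusted P of 0.0646. Its transcript matched ATP5MG over 476 aligned bases with 93.1% identity. Of the 226 75-base words in its last 300 bases, 0 matched another gene exactly. Whether reads of the far more counted ATP5MG were assigned to it was not tested, so the value is uncertain. ATP5MG measured 3497 ± 211.2 CPM in Mock and 4088 ± 259.5 in siNeg (SD, n = 3), with a log2 fold change of 0.23 (SE 0.10) and an edgeR adjusted P of 0.391.

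NDUFB9, an accessory complex I subunit, measured 291.2, 301.8 and 338.5 CPM in Mock and 382.6, 474.1 and 548.2 in siNeg, without overlap (log2 fold change 0.59, SE 0.14, edgeR adjusted P = 0.0742). NDUFA11, another accessory subunit of complex I, measured 130.7, 129.0 and 164.5 CPM in Mock and 182.4, 191.1 and 207.6 in siNeg. COX6A1, the common isoform of a complex IV subunit, measured 110.4, 131.2 and 110.8 CPM in Mock and 134.9, 173.0 and 182.8 in siNeg. Neither of the 2 overlapped between the groups, and their log2 fold changes were 0.45 (SE 0.11, edgeR adjusted P = 0.0742) and 0.48 (SE 0.12, edgeR adjusted P = 0.0829). Of the MT- genes, none passed the adjusted threshold, 5 reached an unadjusted P of 0.05 and DESeq2 passed 0. MT-ND4 had the highest value, 0.57 (SE 0.22, edgeR adjusted P = 0.273), with 4975, 3017 and 4745 CPM in Mock and 4287, 6096 and 8526 in siNeg, so that the groups overlapped. Without a filter on low counts the call changed: 8 of the 13 MT- genes passed as higher, MT-ND4 with an edgeR adjusted P of 1.43e-05, where 0.986% of all 25141 genes passed as higher. The MT- median fell to 0.11 without siNeg replicate 3.

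The difference between the overexpression and the knockdown effect asks whether a gene moved differently in the 2 experiments. No member passed an edgeR adjusted P of 0.05, where 0.973% of all genes did, and DESeq2 passed 1, UQCRQ, where it passed 2.09% of all genes. At an unadjusted P of 0.05, 12 nuclear members were above 0 and 2 below, where 6.94% and 7.56% of all genes were. The nuclear median was 0.14, with 65 values above 0 and 27 below, and the MT- median was -0.13, with 2 above and 11 below and none at an unadjusted P of 0.05. As nuclear members were evenly split in upCIN85 versus Mock, the nuclear lean largely restates that of siCIN85 versus siNeg, with the same siNeg libraries. UQCRQ had a difference of 0.55 (SE 0.14, edgeR adjusted P = 0.0643), made up of 0.18 in upCIN85 and -0.37 in siCIN85. ATP5ME had 0.56 (SE 0.17, edgeR adjusted P = 0.131). NDUFB10 had 0.48 (SE 0.16) and SDHA, the flavoprotein of complex II, 0.54 (SE 0.18), with edgeR adjusted P of 0.149 and 0.173. When only the knockdown had the block, UQCRQ and ATP5ME passed (edgeR adjusted P = 0.0278 and 0.0498), where 1.2% of all genes passed above 0. With the block in both experiments, 6 passed above 0, where 3.24% of all genes did: UQCRQ, ATP5ME, SDHA, NDUFB10, NDUFA1 and COX7C, of which the last 2 were named after their values were seen.

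Complex II is encoded by nuclear genes alone, and no gene of it passed in any comparison of the main edgeR fit. SDHA passed for the difference with the block in both experiments (edgeR adjusted P = 0.0315). SDHA measured 107.3 ± 13.2 CPM for Mock, 121.8 ± 12.7 for upCIN85, 112.3 ± 14.8 for siNeg and 88.0 ± 8.58 for siCIN85 (SD, n = 3). Its siCIN85 libraries, at 81.5, 97.7 and 84.8 CPM, lay below the siNeg libraries, at 100.2, 128.8 and 107.8, with a log2 fold change of -0.35 (SE 0.13, edgeR adjusted P = 0.198). SDHB and SDHC, the iron-sulfur subunit and a membrane anchor, had log2 fold changes between -0.19 and -0.03 in upCIN85 versus Mock and in siCIN85 versus siNeg. SDHD, the other anchor, had few counts and measured 16.6 ± 3.72 CPM in Mock and 11.2 ± 3.31 in upCIN85 (SD, n = 3), with overlapping libraries (log2 fold change -0.56, SE 0.22, edgeR adjusted P = 0.228).

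Of the isoform pairs, COX4I1, the common subunit 4 of complex IV, measured 283.4 ± 10.4 CPM for Mock, 285.9 ± 8.84 for upCIN85, 349.7 ± 26.3 for siNeg and 316.8 ± 2.2496 for siCIN85 (SD, n = 3). Its siNeg libraries lay above both Mock and siCIN85, with log2 fold changes of 0.30 (SE 0.09, edgeR adjusted P = 0.136) in siNeg versus Mock and -0.14 (SE 0.09, edgeR adjusted P = 0.438) in siCIN85 versus siNeg. COX6B1 had log2 fold changes of 0.05, -0.12 and 0.12 in upCIN85 versus Mock, siCIN85 versus siNeg and siNeg versus Mock. CYC1, cytochrome c1 of complex III, had -0.20, -0.19 and -0.04, and its upCIN85 libraries lay below the Mock libraries (edgeR adjusted P = 0.412). ATP5IF1, which inhibits reverse ATP synthase, had 0.18, -0.14 and 0.23, and COX7A2L, a factor of supercomplex assembly, had -0.08, 0.04 and 0.02. None of these passed in the main edgeR fit.

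Other genes of the organelle were taken by list, and the calls given are of the main edgeR fit unless a block is named. Of 46 assembly factors tested, none passed in upCIN85 or siCIN85, and COX14 passed in siNeg versus Mock (log2 fold change 0.57, SE 0.11, edgeR adjusted P = 0.0234), which is 2.17% of the list against 0.526% of all genes. Of 29 genes of mitochondrial DNA expression and 18 of the citric acid cycle, none passed in any comparison of this fit. Their medians in siCIN85 versus siNeg were 0.04 and -0.08. Of 74 mitochondrial ribosomal protein genes, MRPS26 passed as higher in upCIN85 (log2 fold change 0.45, SE 0.09, edgeR adjusted P = 0.028), or 1.35% of the list against 1.23% of all genes, and 53 of 74 were below 0 in siCIN85 with a median of -0.07. The 80 genes of cytoplasmic ribosomal proteins, which are not mitochondrial, also leaned the same way as the nuclear members: 63 were below 0 in siCIN85 versus siNeg with a median of -0.08 and 68 above 0 in siNeg versus Mock with a median of 0.16. Among the latter RPL9 passed (log2 fold change 0.64, SE 0.13, edgeR adjusted P = 0.0345), or 1.25% of the list. With the block in both experiments further list members passed. Lower in siCIN85 versus siNeg were FASTK and PNPT1 of mitochondrial DNA expression, MRPL51, MRPL33, MRPL1, MRPS15 and RPS18, where 4.21% of all genes were. The assembly factor DMAC1 was higher, where 3.51% were. For the difference FASTK, IDH3B, MRPS26, MRPS18B, RPL13 and RPS18 were above 0, where 3.24% of all genes were. Among calls below 0 the 29 genes of mitochondrial DNA expression held only TFB2M, which is not read as a result about that list. What part the ribosomal protein values have in those of the respiratory chain genes was not tested.

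Of 9 tested regulators of mitochondrial biogenesis, PPARGC1B, a coactivator of the PGC-1 family, had values of opposite sign in the 2 experiments and did not pass. Its CPM was 20.3, 18.7 and 15.4 in Mock and 14.7, 13.9 and 9.35 in upCIN85. It was 13.7, 16.9 and 19.0 in siNeg and 23.5, 22.3 and 25.3 in siCIN85. Neither pair of groups overlapped, with log2 fold changes of -0.52 (SE 0.19, edgeR adjusted P = 0.189) and 0.52 (SE 0.19, edgeR adjusted P = 0.197), and a difference of -1.04 (SE 0.27, edgeR adjusted P = 0.0748). With the block in both experiments the adjusted P was 0.0459 in siCIN85 versus siNeg and 0.0057 for the difference. PPARGC1A had at most 4 counts in any library. The mitochondrial transcription factor TFAM and polymerase POLRMT, the RNA-binding proteins LRPPRC and SLIRP, and NRF1, GABPA and ESRRA did not pass in any comparison, and the lowest edgeR adjusted P among them was 0.224, for the ESRRA difference.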

How the data were processed

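RNA of 12 libraries was prepared with a 3′ tag kit that adds unique molecular identifiers, sequenced single-end, and deposited by the authors as raw read counts per Ensembl gene, with no normalization. The submitters' processing notes name cutadapt 4.3, STAR 2.7.3a, Picard 2.25.6, featureCounts of Subread 2.0, MultiQC 1.10.1 and GRCh38. The annotation release, the strand setting and whether reads with the same identifier were counted once are not given in the sources used here, so counts need not be molecules and intervals cover counting error only. The 3′ tags make counts independent of transcript length in the main, and they see no part of a transcript beyond its end.

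Symbols and positions came from GENCODE release 29, which held no match for 95 identifiers. Counts were filtered with edgeR 4.0.16 (filterByExpr, minimum count 10, minimum total 15), scaled by TMM (factors 0.954 to 1.04) and tested over all 12 libraries with the quasi-likelihood test in R 4.3.3, with Benjamini-Hochberg adjustment over the 12542 genes tested and 8 residual degrees of freedom. Tests were two-sided and CPM values use effective library sizes. DESeq2 1.42.0, limma 3.58.1, Python 3.11.15, pandas 2.3.3, scipy 1.17.1, matplotlib 3.10.9 and Biopython 1.88 were also used. Groups followed the labels, and 4 comparisons were made: upCIN85 versus Mock, siCIN85 versus siNeg, siNeg versus Mock, and the overexpression effect minus the knockdown effect. The steps were tested on simulated data.

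Same-numbered libraries were taken as paired where every pair of deviations correlated above 0.1. This held in siCIN85 versus siNeg (r = 0.353, 0.269 and 0.446, across genes, which are not independent replicates), and the block is reported there. No 2 libraries of the same group agreed within sampling noise. Alternatives were the comparison's own 6 libraries, RLE scaling, scaling without MT- genes, no filter, 10 counts in every library, a replicate block, each replicate left out, thinning to the smallest total, and DESeq2. The block had separate terms for each experiment, except in siNeg versus Mock, where it was shared by all 4 groups. The block in the knockdown only and the share without ATP5MG were added after the data were seen.

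Named were the 13 MT- genes, nuclear members past the threshold (or the 4 with the lowest P) in each comparison, the tissue isoform pairs, ATP5IF1, COX7A2L, CYC1, complex II, members that did not pass the filter, SH3KBP1 and 9 regulators. The members and all lists were chosen with earlier results of these data known.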

Additional observations from a re-analysis of the deposited data

How the results depend on the processing

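The count of nuclear members past an adjusted P of 0.05 moved with the processing more than the medians did, and the causes were not tested. In upCIN85 versus Mock it was 0 with edgeR and 1 with only the 6 libraries of the comparison, 2 without a filter on low counts, 5 with the replicate block (ATP5ME, COX8A, COX7A1, ATP5F1A and NDUFB2, edgeR adjusted P = 0.0040, 0.0092, 0.0110, 0.0208 and 0.0240, ATP5F1A being named after its values were seen), 2 with DESeq2, and 0 to 0 with any 1 replicate left out. Without a filter 1 MT- gene passed, MT-ATP8. In siCIN85 versus siNeg it was 0, and 3 without a filter, 10 with the block, 1 with the block in the knockdown only, 1 with DESeq2 and 0 to 2 with a replicate left out. The 2 were UQCRQ and NDUFA5 without siCIN85 replicate 2 (edgeR adjusted P = 0.0326 and 0.0448). In siNeg versus Mock it was 1, and 2 with only 6 libraries and 5 without a filter. It was 3 with a replicate block shared by all 4 groups, 0 after thinning and 6 with DESeq2. With a replicate left out it ran from 0 to 3, the 3 arising without siNeg replicate 1. MT- calls there rose to 8 without a filter. For the difference it was 0, and 1 without a filter, 6 with the block, 2 with the block in the knockdown only, 1 with DESeq2 and 0 to 1 with a replicate left out (UQCRQ without upCIN85 replicate 2, adjusted P = 0.0488). Over all genes, calls numbered 154, 131, 66 and 122 in the 4 comparisons in this order. Without a filter they numbered 637, 617, 376 and 554. With the block of each comparison they numbered 1035, 968, 114 and 918, and with DESeq2 300, 298, 184 and 271. The 6-library fits called 281, 50 and 91 genes in the first 3, and thinning left 100, 136, 53 and 79. With a replicate left out, all-gene calls ran from 25 to 260, 9 to 362, 7 to 134 and 33 to 341, with 34 in siNeg versus Mock without siNeg replicate 1.

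The nuclear median stayed below 0 in siCIN85 versus siNeg in all 15 alternatives (-0.19 to -0.10), above 0 in siNeg versus Mock in all 14 (0.09 to 0.16) and above 0 for the difference in all 20 (0.09 to 0.21). In upCIN85 versus Mock it was above 0 in 6 and below in 8 (-0.03 to 0.06). The MT- median changed sign in siCIN85 versus siNeg (-0.27 to 0.22) and in the difference (-0.40 to 0.09). With a replicate left out, the MT-CYB difference ran from -0.10 to 0.26 and MT-ND6 in siCIN85 versus siNeg from -0.079 to 0.64. The nuclear share of siNeg was 2.49% of protein-coding counts and 2.51% of counts outside MT- genes, and without ATP5MG the nuclear share was 1.86% for Mock, 1.88% for upCIN85, 2.00% for siNeg and 1.86% for siCIN85. In no alternative was the median log2 fold change of all genes further than 0.05 from 0.

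In the plasmid experiment same-numbered libraries correlated at 0.326, 0.227 and 0.0989, each best with its own number, a hint from the data and not from the design. PPARGC1B there had an edgeR adjusted P of 0.0359 with the block. Mock and siNeg gave 0.0751, 0.180 and -0.0600, and replicate 3 did not correlate best with its own number. The block of siNeg versus Mock, shared by all 4 groups, is therefore read as a shared number only. Precision is limited by 3 libraries a group, by the spread of MT- genes between replicates and, for COX7A1 and SDHD, by few counts.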
